A study of Drosophila melanogaster with 25 samples.

Results

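The Cytochrome P450 family was followed across wing imaginal discs of 6 Drosophila genotypes. Members were taken by name alone, as every gene whose FlyBase symbol is Cyp followed by digits and a letter. The annotation holds 85 such genes, and 81 of them were among the 13955 genes measured. The other 4, Cyp6a15Psi, Cyp9f3, Cyp6t2Psi and Cyp6a21, were not analysed here. By clan, the deepest division of the family, 36 members belonged to CYP3, 32 to CYP4, 9 to the mitochondrial clan and 4 to CYP2. They fell into 45 subfamilies, and 33 of the 81 genes lay on chromosome arm 2R.

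P450 enzymes are haem monooxygenases that insert an oxygen atom into lipids, hormones and foreign compounds. Most sit in the endoplasmic reticulum and receive electrons from the reductase Cpr, whereas the mitochondrial clan is served by a ferredoxin and its reductase. In insects the CYP3 and CYP4 clans contain many genes that respond to toxins or have been tied to insecticide resistance, and the CYP2 and mitochondrial clans contain enzymes that make or break down the moulting hormone ecdysone. Several P450 genes are known to be induced with glutathione transferases when oxidative stress or electrophiles activate the transcription factor Cnc, the fly Nrf2.

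Each library came from 50 pooled wing discs of wandering larvae raised at 25 °C, and 25 labelled sequencing samples made up 19 libraries. RpS3+puc (3 libraries; esg-Gal4, UAS-GFP over UAS-Puc with FRT82, RpS3[Plac92], ubi-GFP/+) overexpressed puckered, a phosphatase that restrains JNK signalling, under the esg driver in discs that carried the RpS3 mutation. RpS3 (2 libraries; FRT82B, RpS3[Plac92], ubi-GFP/+) and RpS3* (2 libraries; FRT82B, RpS3*/+) were heterozygous for separate alleles of the same ribosomal protein gene. The mahj discs (2 libraries) carried hs-FLP and stauGFP and were homozygous for a FRT42D chromosome mutant in mahj, a gene that encodes no ribosomal protein, while RpS15 discs (2 libraries; FRT42D, M(2)53[1]/+) were heterozygous for a ribosomal mutation that does not confer loser status in cell competition. WT comprised 8 libraries, labelled yw (WT1 to WT4, WT7 and WT8) or FRT82, ubi-GFP (WT5 and WT6). RpS3 discs lacked the Gal4 and UAS transgenes of RpS3+puc discs, so puckered and those transgenes cannot be told apart. Likewise, mahj and RpS15 were the only genotypes with the FRT42D chromosome. The mutation cannot be told apart from that chromosome arm or from the rest of each stock, which in mahj includes hs-FLP and stauGFP. The labels do not say whether libraries of a genotype came from separate cultures, so p-values measure only the spread between these libraries.

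Values were FPKM (fragment counts divided by transcript length and by library depth), and the steps between low values placed the depth at 12120000 to 16974000 reads per library. The targeted genes moved as their labels say. RpS3 was at 1264 to 1366 FPKM in RpS3+puc, 1314 to 1344 in RpS3 and 1262 to 1296 in RpS3*, against 2057 to 3023 in WT, and RpS15 was at 1008 to 1055 FPKM in RpS15 discs, against 2611 to 4102 in WT. The gene mahj was at 17.2 FPKM in both mahj libraries, against 23.4 to 29.1 in WT, and puc was at 160 to 225 FPKM in RpS3+puc, against 13.0 and 15.0 in RpS3. The library labelled WT4 went against its yw label, with the eye colour gene w at 26.3 FPKM where the other 5 yw libraries had at most 0.0547 and the FRT82, ubi-GFP libraries WT5 and WT6 had 24.8 and 29.2. All 10 wing disc marker genes found were at 21.2 FPKM or more in every library. The summed level of 8 fat body markers was 1461 FPKM in mahj 1 and 652 in RpS15 2 and lay between 5.0 and 321 in the other 17 libraries, and the 6 midgut markers summed to 691 FPKM in WT5 and to at most 43.4 elsewhere. The lowest fat body sums were in RpS3+puc (5.0 to 9.19 FPKM) and RpS3* (17.9 and 23.7 FPKM), against 35.7 to 321 in WT. In bulk discs, fewer cells of a type and less RNA per cell cannot be told apart.

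Most of the family was close to silent in wing discs. In 13 members the highest of the 19 libraries stayed below 0.1 FPKM, and in another 32 it stayed below 1 FPKM. A further 8 reached 1 FPKM in a single library and 28 reached it in at least 2, of which 14 did so in all 19. On a member of median length (1782 bases) 1 read was worth 0.0331 to 0.0463 FPKM, so the 13 members below 0.1 FPKM rested on a handful of reads. Members that stayed below 1 FPKM could have more, such as Cyp12a5 with 7 to 27 reads per library. Testing required 1 FPKM or more in 2 or more libraries of a comparison, which admitted 27 members to at least 1 comparison and left 54 untested.

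**Figure D1:**
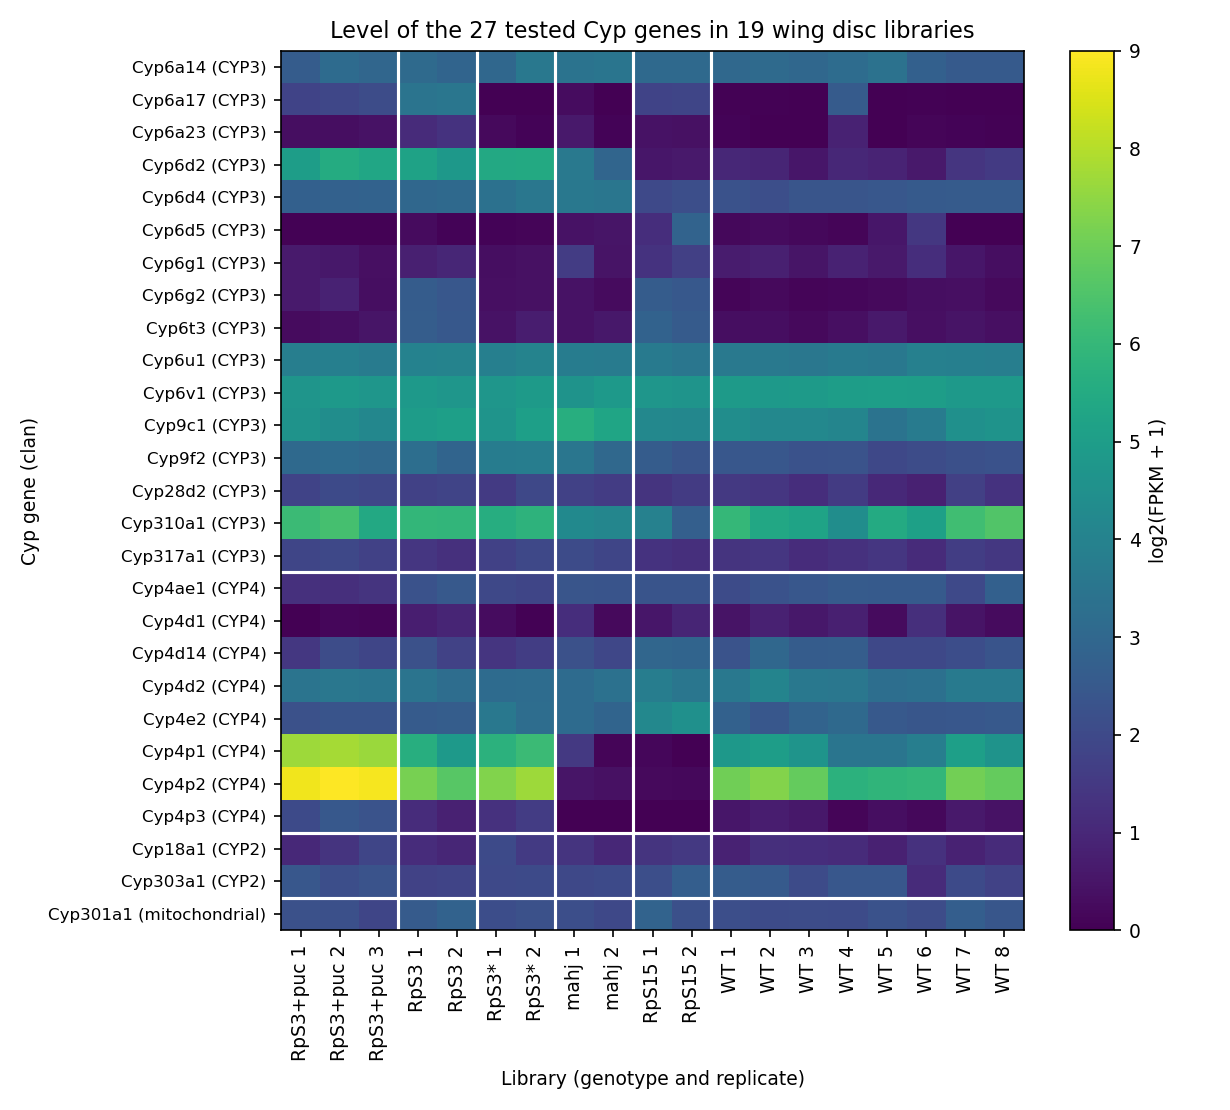
Level of each of the 27 tested Cyp genes (rows, grouped by clan) in each of the 19 libraries (columns, grouped by genotype), as log2(FPKM + 1). Cyp4p1 and Cyp4p2 were brightest in the 3 RpS3+puc libraries and dark in the mahj and RpS15 libraries, and Cyp6d2 was bright in all genotypes except RpS15 and WT.

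The most abundant members in WT by mean level were Cyp4p2 (104 ± 40.3 FPKM), Cyp310a1 (50.7 ± 24.1 FPKM), Cyp6v1 (29.6 ± 1.85 FPKM) and Cyp4p1 (21.6 ± 9.0 FPKM, SD, n = 8 each). Cyp6v1 was the steadiest of these. It had 24.9, 27.6 and 25.3 FPKM in RpS3+puc, 27.6 and 25.7 in RpS3 discs, 25.7 and 28.8 in RpS3* discs, 23.9 and 27.6 in mahj and 25.3 and 24.1 in RpS15, against 27.3 to 32.3 (median 29.2) in WT. The RpS15 libraries and the WT libraries did not overlap, and the difference of -0.25 ± 0.08 (log2 fold change ± SE here and below, on the log2(FPKM + 1) scale) passed the test in RpS15 (limma adjusted p = 0.068) but not with either RpS15 library left out (adjusted p up to 0.378). Summed over all 81 members, the family stood at 868 to 994 FPKM in RpS3+puc, 372 to 451 in RpS3, 437 to 531 in RpS3*, 173 to 213 in mahj and 160 to 166 in RpS15, against 214 to 363 in WT. Most of that spread lay in the Cyp4p subfamily, which made up 74.5 to 77.2% of the sum in RpS3+puc, at most 1.04% in mahj and RpS15, and 29.9 to 53.3% in WT. Without Cyp4p the sums were 198 to 253 FPKM in RpS3+puc, 244 to 259 in RpS3, 226 to 253 in RpS3*, 173 to 211 in mahj and 160 to 166 in RpS15, against 147 to 218 in WT.

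A gene was called at an adjusted p under 0.1, over all genes tested in that comparison. In RpS3 against WT, 9 of 23 tested members were called higher and 0 lower, where 18.6% of all genes were called, 14.4% higher and 4.17% lower. Cyp6d2, Cyp6d4, Cyp9f2, Cyp9c1, Cyp6g2, Cyp6t3, Cyp6a17, Cyp6a23 and Cyp301a1 were the 9, all but Cyp301a1 in the CYP3 clan. At an unadjusted p under 0.05, 11 members passed. The share of all genes at that threshold was not counted, so the 11 are not a result about the members. The median log2 fold change of the tested members was 0.39, against 0.09 over all genes. In RpS3* against WT, 9 of 20 were called higher and 2 lower (22.8% of all genes called, 16.5% higher and 6.33% lower), with a median of 0.45 against 0.07. In mahj against WT, 5 of 21 were higher and 2 lower (16% of all genes called, 9.33% higher and 6.7% lower), with a median of 0.08 against -0.01, and in RpS15 against WT, 5 of 24 were higher and 4 lower (21.1% of all genes called, 12.1% higher and 8.99% lower), with a median of 0.13 against 0.03. Some members met the filter through a single group and could hardly be called in the other direction. Through the mutant libraries alone, these were 4 of the 9 higher in RpS3 (Cyp6g2, Cyp6t3, Cyp6a17 and Cyp6a23), 1 of the 9 in RpS3* (Cyp4p3) and 4 of the 5 in RpS15 (Cyp6g2, Cyp6t3, Cyp6g1 and Cyp6d5), and through WT alone they were Cyp4p1 and Cyp4p2, lower in mahj and RpS15. The counts and medians of tested members are therefore a description. Leaving these members out, 5 of 18 were called higher in RpS3, 8 of 19 higher and 2 lower in RpS3*, 5 of 19 higher in mahj, and 1 of 16 higher and 2 lower in RpS15. Each of the calls named as met through a single group was also made without the filter. These 4 comparisons share the 8 WT libraries. Among all called genes the higher ones made up 77.6% in RpS3, 72.2% in RpS3* and 57.4% in RpS15, and 56.4%, 57.4% and 42.2% of them under median-of-ratios scaling, whereas the members split 8 to 0, 8 to 3 and 5 to 5 under that scaling.

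**Figure D2:**
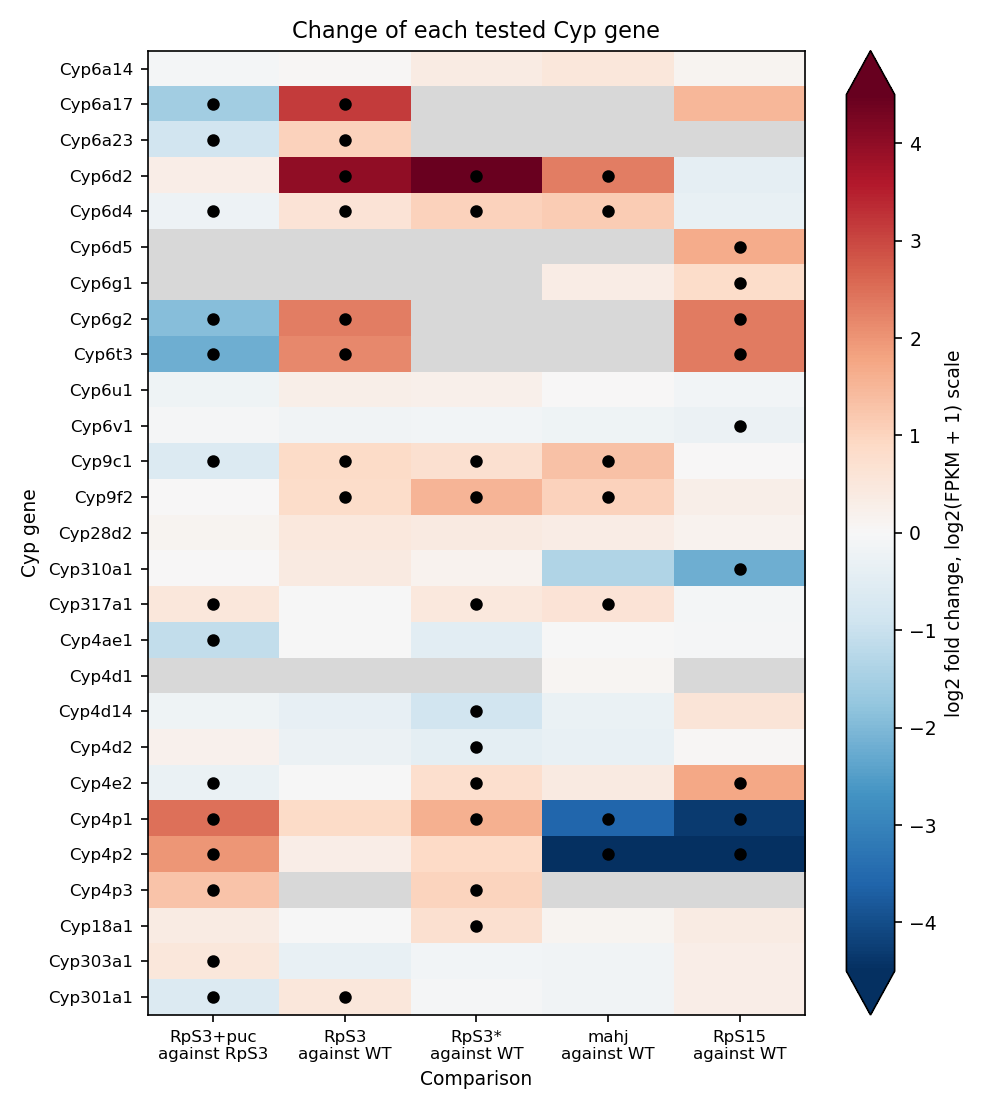
Log2 fold change, on the log2(FPKM + 1) scale, of each of the 27 tested Cyp genes (rows) in 5 comparisons (columns). Black dots mark genes called at an adjusted p under 0.1, grey cells were not tested, and the colour scale ends at 4.5 in either direction, which Cyp4p2 exceeds in mahj and RpS15. Cyp6d2, Cyp6d4, Cyp9f2 and Cyp9c1 carry a dot in RpS3, RpS3* and mahj and none in RpS15.

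Of the 19 members tested in all of RpS3, RpS3* and mahj, 4 were called in the same direction in the 3 and all 4 were higher: Cyp6d2, Cyp6d4, Cyp9f2 and Cyp9c1, all of the CYP3 clan. Of the 8002 genes tested in all 3, 3.89% were higher and 1.35% lower throughout. The study had itself singled out these genes in these libraries as oxidative stress genes, so their shared direction is not independent evidence. Cyp6d2, on 2R, had the largest change of any member in RpS3 and RpS3* on the log2(FPKM + 1) scale. It had 31.5, 45.3 and 39.2 FPKM in RpS3+puc, 35.6 and 26.9 in RpS3 discs, 41.7 and 43.1 in RpS3* discs, 11.6 and 6.56 in mahj and 0.465 and 0.546 in RpS15, against 0.459 to 1.90 (median 0.950) in WT. Every RpS3+puc, RpS3, RpS3* and mahj library was above every WT library, and RpS15 lay at the low end of WT. The log2 fold change against WT was 4.30 ± 0.19 in RpS3+puc (adjusted p = 2.0e-09), 4.0 ± 0.23 in RpS3 (adjusted p = 4.0e-07), 4.45 ± 0.23 in RpS3* (adjusted p = 4.6e-08) and 2.29 ± 0.26 in mahj (adjusted p = 8.3e-05), and -0.40 ± 0.24 in RpS15 (adjusted p = 0.27). The 4 calls held with each compared library left out in turn. The difference between genotypes was also tested directly. RpS15 was below the mean of both RpS3 alleles (-4.63 ± 0.25, adjusted p = 3.6e-09), and mahj was also below it (-1.93 ± 0.25, adjusted p = 0.00012).

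Cyp6d2 shares 897 exonic bases with nsr, a gene on the opposite strand, and whether reads were assigned by strand is not given in the sources used here. Its neighbour nsr had 10.7, 13.3 and 11.0 FPKM in RpS3+puc, 11.4 and 7.83 in RpS3 discs, 13.1 and 13.6 in RpS3* discs, 1.82 and 1.48 in mahj and 0.731 and 0.641 in RpS15, against 1.03 to 2.56 in WT. Both genes were thus high in the RpS3+puc, RpS3 and RpS3* libraries, while in mahj only Cyp6d2 stood above WT. Reads of this pair in the shared bases cannot be told apart.

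Cyp6d4, a member of the same subfamily on 3R, changed less. It had 5.76, 5.97 and 6.09 FPKM in RpS3+puc, 6.97 and 7.47 in RpS3 discs, 9.27 and 10.9 in RpS3* discs, 11.0 and 10.6 in mahj and 2.93 and 3.52 in RpS15, against 3.47 to 5.07 (median 4.36) in WT. All libraries of RpS3+puc, RpS3, RpS3* and mahj exceeded all WT libraries, and RpS15 overlapped only the low end of WT. Its log2 fold change was 0.61 ± 0.13 in RpS3 (adjusted p = 0.011), 1.04 ± 0.13 in RpS3* (adjusted p = 0.00021) and 1.14 ± 0.13 in mahj (adjusted p = 8.1e-05), against -0.35 ± 0.14 in RpS15 (adjusted p = 0.11). RpS15 differed from both RpS3 alleles by -1.18 ± 0.13 (adjusted p = 9.3e-06). In RpS3 the call was lost with either library left out (adjusted p up to 0.159). The third gene of the subfamily, Cyp6d5, reached the filter against WT only in RpS15, where it was called, as given further on.

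Cyp9f2, on 3R, had 7.39, 7.82 and 7.20 FPKM in RpS3+puc, 8.41 and 6.52 in RpS3 discs, 12.7 and 12.9 in RpS3* discs, 10.6 and 7.30 in mahj and 5.19 and 4.22 in RpS15, against 2.91 to 4.43 (median 3.84) in WT. The first 4 genotypes lay wholly above WT and RpS15 overlapped it. Its log2 fold change was 0.82 ± 0.14 in RpS3 (adjusted p = 0.0033), 1.54 ± 0.13 in RpS3* (adjusted p = 5.5e-06) and 1.04 ± 0.15 in mahj (adjusted p = 0.00063), with 0.26 ± 0.14 in RpS15 (adjusted p = 0.23). RpS15 differed from both RpS3 alleles by -0.92 ± 0.16 (adjusted p = 0.00045). The RpS3 call was lost without RpS3 1 (adjusted p = 0.169).

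Cyp9c1, on 2R, was the most abundant of the 4 in WT. It had 23.6, 20.2 and 16.9 FPKM in RpS3+puc, 30.6 and 32.5 in RpS3 discs, 24.2 and 32.9 in RpS3* discs, 48.7 and 38 in mahj and 17.3 and 16.7 in RpS15, against 9.81 to 23.5 (median 17.4) in WT. RpS3, RpS3* and mahj were above all WT libraries, whereas RpS3+puc and RpS15 overlapped WT. The log2 fold changes were 0.87 ± 0.25 in RpS3 (adjusted p = 0.049), 0.72 ± 0.26 in RpS3* (adjusted p = 0.09) and 1.31 ± 0.26 in mahj (adjusted p = 0.0067), and 0.02 ± 0.25 in RpS15 (adjusted p = 0.96). These calls were the least secure of the 4 genes. They were lost with either RpS3 library left out (adjusted p up to 0.321), with either RpS3* library left out (up to 0.512), and without mahj 1 (0.174). The RpS3* call was also lost without WT1, WT2, WT3 or WT4, each in turn, without the filter, under median-of-ratios scaling and against the WT libraries of 1 run. Cyp9c1 was also the 1 member of 19 tested that was called between the WT stocks (0.815% of all genes called, 0.226% lower), at 9.81 and 12.3 FPKM in FRT82, ubi-GFP against 16.2 to 23.5 in yw (-0.76 ± 0.15, adjusted p = 0.065). That call was lost without WT5, WT6 or WT8, each in turn. At an unadjusted p under 0.05, 7 members passed in that comparison. The share of all genes at that threshold was not counted, so the 7 are not a result about the members. Of the 1743 exonic bases of Cyp9c1, 1711 are shared with asRNA:CR43787, an antisense RNA gene.

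**Figure D3:**
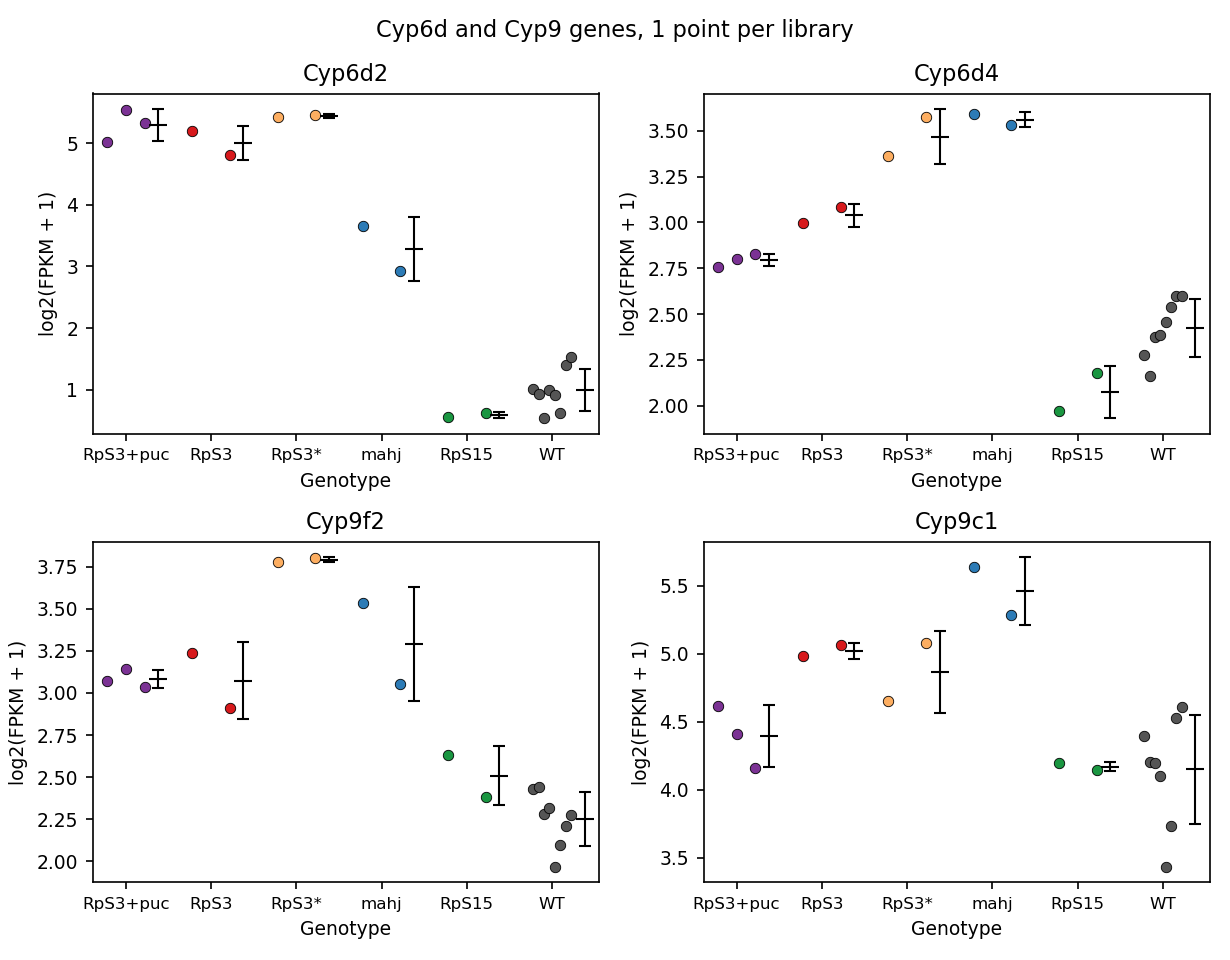
Level of Cyp6d2, Cyp6d4, Cyp9f2 and Cyp9c1 by genotype, as log2(FPKM + 1), with 1 point per library and the mean ± SD of the log2 values beside the points. RpS3, RpS3* and mahj lie above WT in all 4 panels and RpS15 lies within the range of WT for Cyp6d2 and Cyp9c1.

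Overexpression of puckered was compared with RpS3, which carries the same allele. Among the tested members, 5 of 24 were called higher in RpS3+puc and 9 lower, where 46.6% of all genes were called, 21.5% higher and 25.1% lower, and the medians were -0.06 for the members and -0.02 for all genes. Of the 9 lower, 3 (Cyp6g2, Cyp6t3 and Cyp6a23) met the filter through RpS3 alone. Of the 5 higher, 1 (Cyp4p3) met it through RpS3+puc alone. These could hardly be called in the other direction. Leaving out all members that entered through a single group, 4 of 19 were higher and 6 lower. The 4 genes shared by RpS3, RpS3* and mahj did not share a call here. Cyp6d2 (0.30 ± 0.17, adjusted p = 0.2) and Cyp9f2 (0.01 ± 0.12, adjusted p = 0.96) were not called. Cyp6d4 was lower by a small step (-0.24 ± 0.10, adjusted p = 0.095), a call that was lost with any of the 5 libraries left out (adjusted p up to 0.407), and Cyp9c1 was lower (-0.63 ± 0.12, adjusted p = 0.0072), also with each of the 5 libraries left out. In RpS3+puc against WT, 10 of 21 members were higher and 4 lower (62.3% of all genes called, 37.4% higher and 24.9% lower), and Cyp6d2, Cyp9f2 (0.83 ± 0.11, adjusted p = 9.4e-05) and Cyp6d4 (0.37 ± 0.11, adjusted p = 0.01) were among the higher ones. Of these 10, 2 (Cyp4p3 and Cyp6a17) met the filter through RpS3+puc alone, and without them 8 of 19 were higher and 4 lower.

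The Cyp4p subfamily, of the CYP4 clan, showed the widest range of levels. Its 3 genes sit next to each other on 2R, inside the span of hig and on the other strand, with no exonic bases in common with it. Cyp4p2 had 449, 517 and 469 FPKM in RpS3+puc, 142 and 99.1 in RpS3 discs, 155 and 206 in RpS3* discs, 0.408 and 0.328 in mahj and 0.177 and 0.144 in RpS15, against 53.5 to 159 (median 116) in WT. RpS3+puc stood above every other library and mahj and RpS15 were close to 0, while RpS3 lay within WT. Its log2 fold change was 2.00 ± 0.14 in RpS3+puc against RpS3 (adjusted p = 0.00023), and against WT it was 2.30 ± 0.34 in RpS3+puc (adjusted p = 0.00044), 0.30 ± 0.43 in RpS3 (adjusted p = 0.67), 0.89 ± 0.42 in RpS3* (adjusted p = 0.18), -6.15 ± 0.42 in mahj (adjusted p = 8.7e-06) and -6.39 ± 0.42 in RpS15 (adjusted p = 2.4e-05). In reads, the mahj libraries held 11 and 9 and the RpS15 libraries 5 and 4, against 1152 to 4383 in WT.

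Cyp4p1 followed the same order of genotypes. It had 206, 219 and 198 FPKM in RpS3+puc, 48.6 and 27.7 in RpS3 discs, 54.5 and 70.0 in RpS3* discs, 1.80 and 0.0772 in mahj and 0.112 and 0 in RpS15, against 10.4 to 32.6 (median 24.0) in WT. RpS3* was wholly above WT and RpS3 overlapped it. The log2 fold change was 2.46 ± 0.22 in RpS3+puc against RpS3 (adjusted p = 0.0017), and against WT 3.32 ± 0.36 in RpS3+puc (adjusted p = 8.6e-05), 1.59 ± 0.45 in RpS3* (adjusted p = 0.044), -3.58 ± 0.51 in mahj (adjusted p = 0.0015) and -4.30 ± 0.44 in RpS15 (adjusted p = 0.00045). The RpS3* call was lost with either RpS3* library left out (adjusted p up to 0.343). The sizes of these falls depend on the value of 1 added before the logarithm, since the levels were near 0.

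Cyp4p3 was the weakest of the 3, at 3.07, 4.59 and 3.91 FPKM in RpS3+puc, 1.23 and 0.776 in RpS3 and 1.45 and 2.02 in RpS3*, against 0.0990 to 0.656 (median 0.411) in WT. It was listed at 0 in all mahj and RpS15 libraries. RpS3+puc was above all other libraries, and RpS3 and RpS3* were above WT. The difference was 1.27 ± 0.18 in RpS3+puc against RpS3 (adjusted p = 0.0024), 1.82 ± 0.16 in RpS3+puc against WT (adjusted p = 2.2e-06) and 1.00 ± 0.19 in RpS3* against WT (adjusted p = 0.0041). With 1 RpS3* library left out the gene failed the filter and was not refitted.

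The hig gene, whose span holds the cluster, had 1.59, 1.64 and 1.18 FPKM in RpS3+puc, 0.961 and 0.689 in RpS3 discs, 0.885 and 0.857 in RpS3* discs, 0.209 and 0.0624 in mahj and 0.0623 and 0.0298 in RpS15, against 0.525 to 1.30 in WT. It was thus lowest in the same 4 libraries as the Cyp4p genes. Within WT, the library WT4 sided with WT5 and WT6: Cyp4p2 was at 53.5 FPKM in WT4, 58.6 in WT5 and 61.9 in WT6, and at 115 to 159 in the other 5 libraries, which is the same division as for w. In FRT82, ubi-GFP against yw as labelled, Cyp4p2 differed by -0.89 ± 0.34 (adjusted p = 0.47) and Cyp4p1 by -0.93 ± 0.37 (adjusted p = 0.51). Without WT4 both were called, at -1.10 ± 0.14 (adjusted p = 0.0037) and -1.15 ± 0.15 (adjusted p = 0.0053), and 3 members in all. The Cyp4p calls of mahj, RpS15, RpS3* and RpS3+puc against WT held without WT4.

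Cyp310a1, the only Cyp310 gene among the members and on 2L, was also low in mahj and RpS15. It had 70.0, 80.9 and 41.8 FPKM in RpS3+puc, 61.7 and 59.2 in RpS3 discs, 47.5 and 55.0 in RpS3* discs, 18.4 and 16.6 in mahj and 14.6 and 5.60 in RpS15, against 20.1 to 93.5 (median 42.9) in WT. The mahj and RpS15 libraries were below every WT library. The log2 fold change was -2.21 ± 0.53 in RpS15 (adjusted p = 0.03) and -1.34 ± 0.47 in mahj (adjusted p = 0.11), of which only the RpS15 value was called. Without WT4, the lowest WT library, mahj was called as well (-1.51 ± 0.36, adjusted p = 0.024). Against both RpS3 alleles, both genotypes were called lower (-2.48 ± 0.50 in RpS15, adjusted p = 0.0023, and -1.62 ± 0.50 in mahj, adjusted p = 0.045), that of mahj being lost with either mahj library left out. Without RpS15 2 the call against WT was lost (-1.59, adjusted p = 0.282), as it was against FRT82, ubi-GFP alone (adjusted p = 0.145) or WT1 and WT2 alone (adjusted p = 0.149).

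**Figure D4:**
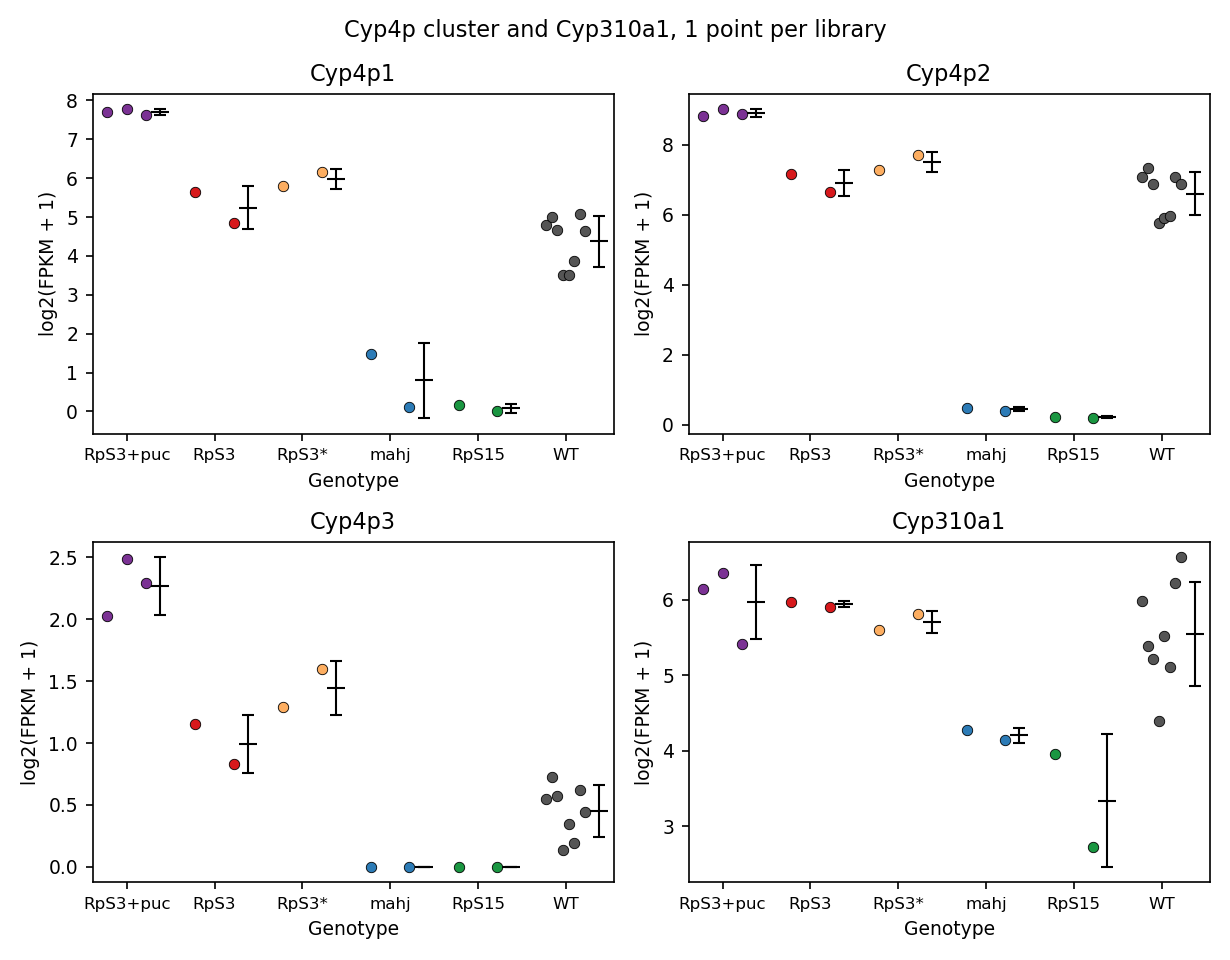
Level of Cyp4p1, Cyp4p2, Cyp4p3 and Cyp310a1 by genotype, as log2(FPKM + 1), with 1 point per library and the mean ± SD of the log2 values beside the points. The 3 RpS3+puc libraries are highest in each Cyp4p panel, and the mahj and RpS15 libraries are lowest in all 4 panels.

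A pair of adjacent CYP3 genes on 2R, Cyp6g2 and Cyp6t3, was expressed in RpS3 and RpS15 and barely elsewhere. Cyp6t3 is known in Drosophila for a part in ecdysone synthesis in the prothoracic gland, and Cyp6g2 has been tied to insecticide tolerance when overexpressed. Cyp6g2 had 0.571, 0.820 and 0.252 FPKM in RpS3+puc, 5.15 and 4.40 in RpS3 discs, 0.280 and 0.320 in RpS3* discs, 0.364 and 0.196 in mahj and 5.13 and 4.63 in RpS15, against 0.0937 to 0.302 (median 0.162) in WT. Cyp6t3 had 0.186, 0.259 and 0.407 FPKM in RpS3+puc, 5.28 and 4.55 in RpS3 discs, 0.366 and 0.639 in RpS3* discs, 0.350 and 0.497 in mahj and 6.17 and 5.02 in RpS15, against 0.183 to 0.535 (median 0.280) in WT. The RpS3 and RpS15 libraries were apart from all others, including RpS3+puc, which carries the same RpS3 allele, and RpS3*, which carries another.

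Both genes stayed below 1 FPKM outside RpS3 and RpS15, so they were tested only through the group in which they were high. For Cyp6g2 the log2 fold change was 2.30 ± 0.15 in RpS3 against WT (adjusted p = 7.6e-07), 2.33 ± 0.15 in RpS15 against WT (adjusted p = 2.2e-06) and -1.91 ± 0.18 in RpS3+puc against RpS3 (adjusted p = 0.00046). For Cyp6t3 it was 2.17 ± 0.15, 2.33 ± 0.15 and -2.20 ± 0.15 in the same order (adjusted p = 1.4e-06, 2.6e-06 and 7.3e-05). RpS3* discs were lower than RpS3 discs (-2.15 ± 0.16 for Cyp6g2, adjusted p = 8.5e-07, and -1.98 ± 0.17 for Cyp6t3, adjusted p = 4.6e-06). RpS3 discs also carried ubi-GFP, which RpS3* discs lacked, so the allele and the rest of the stock cannot be told apart. That comparison called 3 of 24 members, all lower in RpS3*, where 0.651% of all genes were called and 0.293% were called lower. The third call was Cyp6a17. All 3 entered through the RpS3 libraries alone, so the filter favoured that direction, and all 3 were also called without it (adjusted p = 1.4e-07 for Cyp6g2, 3.0e-06 for Cyp6t3 and 0.027 for Cyp6a17). With 1 RpS3 library left out, the 3 genes failed the filter in that comparison and were not refitted. The same held for Cyp6g2 and Cyp6t3 in RpS3 and RpS15 against WT with 1 library of the mutant left out. Both genes were carried by 125 to 166 reads in each RpS3 and RpS15 library, against 3 to 14 in WT.

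Cyp6a17, known for a role in temperature preference, and its neighbour Cyp6a23 lie in a cluster of 8 members on 2R. Cyp6a17 had 2.53, 2.77 and 3.26 FPKM in RpS3+puc, 9.93 and 10.6 in RpS3, 0.242 and 0 in mahj and 2.49 and 2.65 in RpS15, against 0 to 4.99 (median 0.0171) in WT, and was listed at 0 in both RpS3* libraries. RpS3 was above all other libraries, and WT4 alone among WT was high, at 4.99 FPKM, where the other 7 were at most 0.0373. The log2 fold change was 3.15 ± 0.58 in RpS3 against WT (adjusted p = 0.0075), 1.60 ± 0.48 in RpS3+puc against WT (adjusted p = 0.015), 1.49 ± 0.58 in RpS15 against WT (adjusted p = 0.11), -1.55 ± 0.13 in RpS3+puc against RpS3 (adjusted p = 0.00018) and -3.49 ± 0.65 in RpS3* against RpS3 (adjusted p = 0.026). The RpS3 call was lost without RpS3 1, and the difference between RpS3* and RpS3 was not called with either RpS3* library left out. Without WT4 the difference was 3.47 ± 0.14 in RpS3 (adjusted p = 4.0e-08) and 1.81 ± 0.15 in RpS15 (adjusted p = 3.8e-05), so RpS15 was then called. Cyp6a23 was weaker, at 0.251, 0.249 and 0.356 FPKM in RpS3+puc and 1.13 and 1.5 in RpS3, against at most 0.796 (in WT4) in WT. It was called in RpS3 against WT (1.05 ± 0.22, adjusted p = 0.012) and in RpS3+puc against RpS3 (-0.85 ± 0.16, adjusted p = 0.0064), both times entering through the RpS3 libraries alone, and failed the filter with 1 of them left out. Without the filter it was called in both (adjusted p = 0.0075 and 0.012). These genes are close in sequence in the fly genome, and whether reads shared between near-identical copies were split by the counting was not tested.

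**Figure D5:**
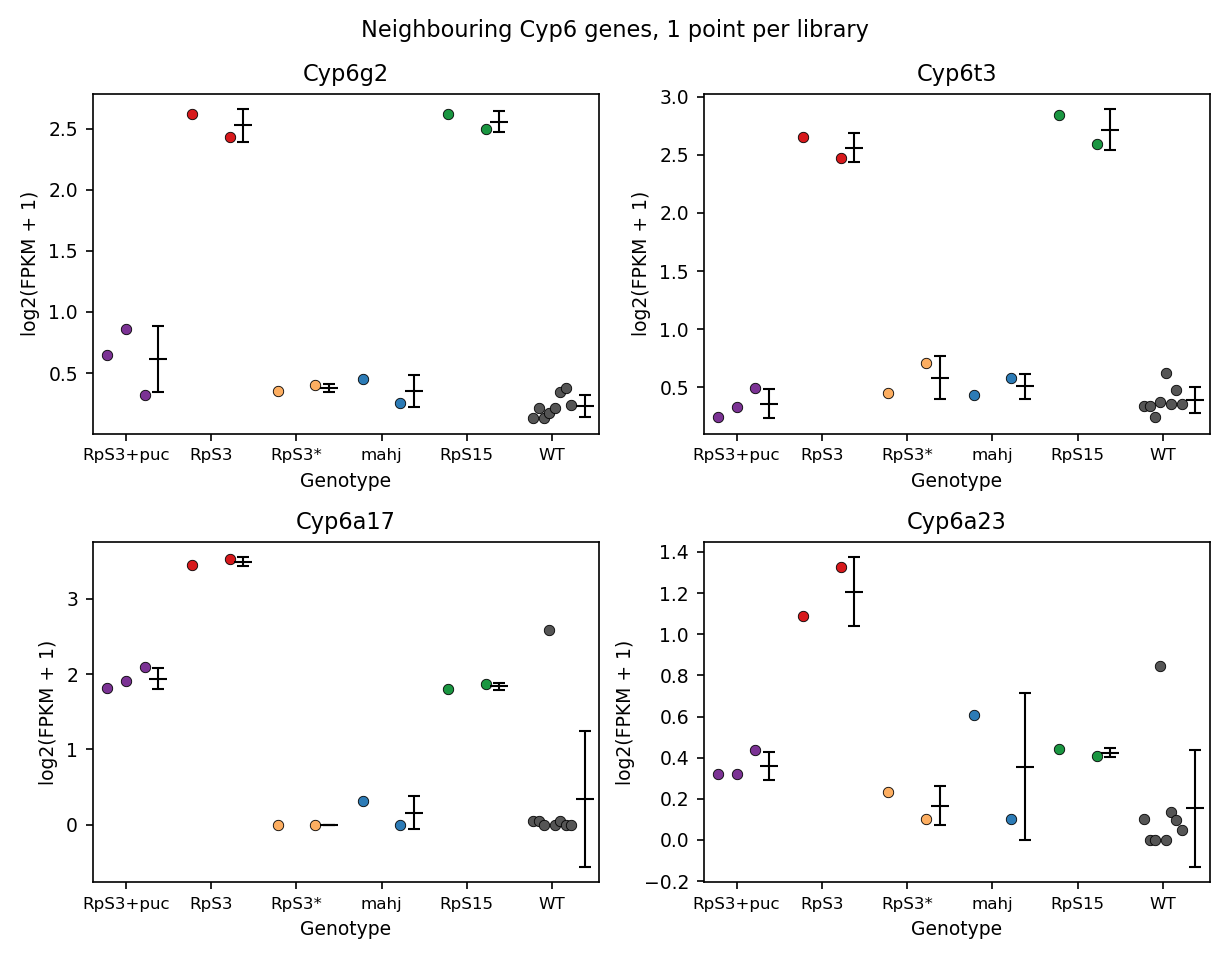
Level of Cyp6g2, Cyp6t3, Cyp6a17 and Cyp6a23 by genotype, as log2(FPKM + 1), with 1 point per library and the mean ± SD of the log2 values beside the points. RpS3 is high in all 4 panels, RpS15 is high for Cyp6g2 and Cyp6t3, and a single WT library (WT4) stands above the other 7 for Cyp6a17 and Cyp6a23.

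Further calls in RpS15 were of CYP3 and CYP4 genes. Cyp6d5, on 3R, had 1.27 and 6.28 FPKM in RpS15, against 0 to 1.76 (median 0.154) in WT, and was called at 1.67 ± 0.41 (adjusted p = 0.024). The call was lost without RpS15 2 (adjusted p = 0.376), against the FRT82, ubi-GFP WT libraries alone (1.01, adjusted p = 0.449) and against WT1 and WT2 alone. Cyp6g1, whose overexpression is the classic cause of DDT resistance, was at 1.52 and 2.23 FPKM in RpS15, against 0.260 to 1.28 in WT (0.82 ± 0.21, adjusted p = 0.028), and was not called with either RpS15 library left out (adjusted p up to 0.292) or against FRT82, ubi-GFP alone (adjusted p = 0.167). In both genes the higher value was in RpS15 2, where the fat body markers summed to 652 FPKM, against 111 in RpS15 1, and the highest WT library was WT6, where they summed to 321. The markers summed to 1461 FPKM in mahj 1 and 62.4 in mahj 2. There Cyp6g1 had 2.04 and 0.376 FPKM, and Cyp6d5 had 0.361 and 0.435. The part of fat body RNA in the result was not tested. Cyp4e2, of the CYP4 clan on 2R, was more stable. It had 17.5 and 21.9 FPKM in RpS15 and 11.1 and 8.30 in RpS3*, against 4.34 to 7.42 (median 4.77) in WT, with log2 fold changes of 1.73 ± 0.17 in RpS15 (adjusted p = 6.7e-05) and 0.77 ± 0.18 in RpS3* (adjusted p = 0.012). The RpS15 call held with either library left out, and the RpS3* call was lost without RpS3* 1 (adjusted p = 0.211).

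Lower levels in the CYP4 clan were called in RpS3+puc and RpS3*. Cyp4ae1, on X, had 1.35, 1.34 and 1.58 FPKM in RpS3+puc and 3.82 and 4.74 in RpS3, against 2.93 to 5.76 (median 4.64) in WT. The 3 RpS3+puc libraries were below all others. The difference was -1.12 ± 0.14 against RpS3 (adjusted p = 0.0017) and -1.12 ± 0.16 against WT (adjusted p = 0.00014), and both calls held with each library left out. Its neighbours Cyp4d14 and Cyp4d2 were lower in RpS3* against WT (-0.85 ± 0.24, adjusted p = 0.037, and -0.45 ± 0.16, adjusted p = 0.083), both lost with either RpS3* library left out, and that of Cyp4d2 also without WT1, WT3, WT4 or WT8, without the filter and against the WT libraries of 1 run. Against the FRT82, ubi-GFP WT libraries alone, neither was called (-0.43, adjusted p = 0.146, for Cyp4d14 and -0.14, adjusted p = 0.466, for Cyp4d2). Cyp4d14 was also lower in RpS3+puc against WT (-0.54 ± 0.22, adjusted p = 0.047), a call that was lost without RpS3+puc 1 (adjusted p = 0.254). Cyp4e2 was slightly lower in RpS3+puc, with differences of -0.30 ± 0.11 against RpS3 (adjusted p = 0.073) and -0.32 ± 0.14 against WT (adjusted p = 0.062), and the difference against WT was not called with any RpS3+puc library left out. That against RpS3 was lost without RpS3 1, RpS3 2, RpS3+puc 1 or RpS3+puc 3 (adjusted p up to 0.332). Cyp4ae1, Cyp4d2 and Cyp4d14 share 1608, 2436 and 1629 exonic bases with antisense RNA genes.

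Of the remaining CYP3 genes, Cyp317a1 rose in mahj (0.61 ± 0.15, adjusted p = 0.021), RpS3* (0.48 ± 0.15, adjusted p = 0.059) and RpS3+puc (0.51 ± 0.13, adjusted p = 0.0048), all against WT, and in RpS3+puc against RpS3 (0.51 ± 0.14, adjusted p = 0.023). Levels were 2.36 to 2.86 FPKM in RpS3+puc, 1.70 and 1.40 in RpS3 discs, 2.31 and 2.84 in RpS3* discs, 3.14 and 2.70 in mahj and 1.51 and 1.31 in RpS15, against 1.16 to 2.14 in WT. The mahj call was lost without mahj 1, the RpS3* call with either library left out, and that against RpS3 without RpS3 2. It overlaps Kank on the opposite strand over 1331 exonic bases, and Kank was at 39.9, 52.8 and 39.7 FPKM in RpS3+puc, 46.6 and 42.1 in RpS3 discs, 44.9 and 60.4 in RpS3* discs, 77.9 and 59.9 in mahj and 34.8 and 26.3 in RpS15, against 29.3 to 42.5 in WT. Cyp28d2 was called only in RpS3+puc against WT, at 2.53 to 3.08 FPKM in RpS3+puc, against 0.775 to 2.26 in WT (0.59 ± 0.17, adjusted p = 0.011). Cyp6v1 was slightly lower in the same comparison (-0.18 ± 0.07, adjusted p = 0.043, lost without RpS3+puc 1 or 3). Cyp6a14 and Cyp6u1 were tested and not called against WT in all 5 mutant genotypes, and Cyp4d1, of the CYP4 clan, was tested in mahj alone and not called.

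In the CYP2 and mitochondrial clans few members were expressed, and changes were small. Cyp18a1, which inactivates ecdysone, had 1.04, 1.53 and 2.68 FPKM in RpS3+puc and 3.04 and 1.87 in RpS3*, against 0.783 to 1.45 in WT. It was called in RpS3* (0.71 ± 0.18, adjusted p = 0.021, lost without RpS3* 1) and in RpS3+puc (0.36 ± 0.17, adjusted p = 0.093, lost without RpS3+puc 2 or 3, and without any of 5 WT libraries). Cyp303a1, needed for sensory bristles, was higher in RpS3+puc, at 4.48, 3.52 and 3.93 FPKM, against 2.42 and 2.56 in RpS3 (0.51 ± 0.13, adjusted p = 0.019), lost with either RpS3 library left out. It shares 919 exonic bases with heix on the opposite strand. The heix gene was at 10.4, 13.0 and 13.5 FPKM in RpS3+puc and at 15.7 and 17.9 in RpS3. Cyp301a1, the one tested mitochondrial member and a gene of adult cuticle formation, was at 3.71, 3.56 and 2.71 FPKM in RpS3+puc and 5.03 and 6.19 in RpS3, against 3.12 to 5.38 in WT. RpS3 was called higher than WT (0.49 ± 0.16, adjusted p = 0.073, lost with either RpS3 library left out and without WT2, WT3 or WT4, and also without the filter, under median-of-ratios scaling and against yw or 1-run WT libraries alone) and RpS3+puc lower than RpS3 (-0.61 ± 0.15, adjusted p = 0.015, lost without RpS3 2).

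RpS15 and mahj were also each set against the mean of both RpS3 alleles. RpS15 had 7 members higher and 10 lower of 26 tested (57% of all genes called, 23.9% higher and 33.1% lower), and mahj had 1 higher and 8 lower of 24 tested (26.2% of all genes called, 7.18% higher and 19.1% lower), Cyp317a1 being the higher one (0.38 ± 0.15, adjusted p = 0.098, lost with any of the 6 compared libraries left out). Members that met the filter through a single side could hardly be called in the other direction. In mahj these were 6 of the 8 lower, all through the RpS3 and RpS3* libraries. In RpS15 they were 4 of the 10 lower and 2 of the 7 higher. Leaving such members out, 1 of 17 was higher and 2 lower in mahj, and 5 of 19 higher and 6 lower in RpS15. The largest differences were those of Cyp4p2, at -6.98 ± 0.42 in RpS15 (adjusted p = 1.2e-07) and -6.75 ± 0.42 in mahj (adjusted p = 4.0e-07). Cyp9c1 (0.51 ± 0.26, adjusted p = 0.18), Cyp9f2 (-0.14 ± 0.16, adjusted p = 0.56) and Cyp6d4 (0.31 ± 0.13, adjusted p = 0.11) did not pass the test between mahj and both RpS3 alleles, which does not show that they were alike.

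Untested members were most often highest in mahj 1. Of the 54, 18 had their highest level in mahj 1, 7 in WT5 and 6 in RpS15 2, and at most 3 in any other library. Cyp28d1 was at 2.69 FPKM in mahj 1 against 0.321 in mahj 2, Cyp28a5 at 2.09 against 0.184, Cyp4ac1 at 1.62 against 0.195 and Cyp4e3 at 1.5 against 0.0718. The fat body markers summed to 1461 FPKM in mahj 1 and to 62.4 in mahj 2. In WT5, Cyp12a4, a mitochondrial member tied to resistance to an insect growth regulator, was at 2.33 FPKM against at most 0.834 in the other libraries, and that library had the high midgut markers. The part of fat body or gut RNA in these values was not tested.

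Partner genes of the P450 system were counted in the same way. In RpS3+puc against WT, where 62.3% of all genes were called, 4 of 6 electron donors were higher, and of 6 regulators 1 was higher and 4 lower. The reductase Cpr was not called in any of RpS3, RpS3*, mahj or RpS15 against WT, nor was the mitochondrial reductase dare. Of 6 electron donors tested in each comparison, the ferredoxin Fdx1 was called higher in RpS3 (0.38, adjusted p = 0.094) and RpS3* (0.58, adjusted p = 0.012) and lower in RpS15 (-0.60, adjusted p = 0.015), CG3566 was lower in RpS15 (-0.77, adjusted p = 0.026) and Fdx2 was lower in mahj (-0.48, adjusted p = 0.027). Among 6 regulators, cnc and its inhibitor Keap1 were not called in these 4 comparisons, and ss, the partner of tgo in xenobiotic and developmental transcription, was lower in RpS3 (-0.35, adjusted p = 0.052) and RpS3* (-0.35, adjusted p = 0.046), and maf-S was lower in mahj (-0.36, adjusted p = 0.058). The ecdysone P450 genes that have names of their own were 5 tested in each of these comparisons, with sad lower in RpS3* (-0.65, adjusted p = 0.0052) and RpS15 (-0.42, adjusted p = 0.048), shd lower in RpS3 (-0.61, adjusted p = 0.071) and RpS3* (-0.73, adjusted p = 0.032) and phtm higher in RpS3* (0.51, adjusted p = 0.052), all from levels under 4 FPKM.

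The other oxidative stress genes were divided by whether the study had listed them from these libraries, in which case their direction is not independent evidence. Of the listed genes, 14 of 16 tested were higher and 0 lower in RpS3 (median 0.85), 16 of 17 higher and 1 lower in RpS3* (1.32), 16 of 17 higher and 1 lower in mahj (1.24), and 2 higher and 2 lower of 15 in RpS15 (-0.23). GstE6, a glutathione transferase, had the largest change, at 5.35 in RpS3, 6.03 in RpS3* and 4.78 in mahj. Of 10 further antioxidant genes, 4 were higher in RpS3 (median 0.31), 6 higher and 1 lower in RpS3* (0.50), 1 higher and 1 lower in mahj (0.02) and 3 lower in RpS15 (-0.29). GstE1, a classic stress-inducible transferase, was higher in RpS3 (1.10, adjusted p = 0.022) and RpS3* (1.72, adjusted p = 0.0012) and lower in mahj (-1.58, adjusted p = 0.0028) and RpS15 (-1.29, adjusted p = 0.011). In RpS3+puc against RpS3, 1 of 15 listed genes was higher and 1 lower (median 0.16), and 6 of 9 others were higher (median 0.24). Over all genes, 14.4% were called higher and 4.17% lower in RpS3, and 16.5% and 6.33% in RpS3*. These shares were 9.33% and 6.7% in mahj, 12.1% and 8.99% in RpS15, and 21.5% and 25.1% in RpS3+puc against RpS3.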

How the data were processed

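RNA was sequenced from 19 wing disc libraries, and 6 of them were sequenced in 2 runs that the authors pooled. The authors aligned reads with BWA 0.6.2 to the dm3 build, per the submitters' processing notes, and deposited FPKM per gene. No strand setting for counting is given in the sources used here. Depth was recovered from the steps of low FPKM values (97.3 to 97.8% whole within 0.02 reads). Symbols came from an Ensembl release 115 annotation (13661 identifiers matched). Since that build is not dm3, no coordinates are given.

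FPKM was tested as log2(FPKM + 1) with limma 3.58.1 (R 4.3.3; trend and robust empirical Bayes) on genes reaching 1 FPKM in 2 or more compared libraries, with Benjamini-Hochberg adjustment over all genes tested and calls at 0.1. The script was tested on simulated data. Alternatives were a pseudocount of 0.1, no filter, a threshold of 0.05, median-of-ratios scaling, no trend, a joint fit, WT subsets, a replicate block and each library left out. Members, gene lists and tests were chosen with earlier results of these data known. Named with values were members called against WT or in RpS3+puc against RpS3, with every library given for those shared by RpS3, RpS3* and mahj, the 4 largest changes per comparison and the 4 most abundant in WT.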

Additional observations from a re-analysis of the deposited data

Results flagged for a closer look

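A single WT library stood apart from the other 7 in 4 of 27 members checked, by the gap to its nearest neighbour over the range of the group (critical value 0.526 for 8 libraries), and chance alone gives about 1 such group in 20. Cyp6a17 was at 4.99 FPKM in WT4, with the next library at 0.0373 (gap over range 0.993), and Cyp6a23 at 0.796 FPKM in WT4, with the next at 0.10 (0.874). Cyp6d5 was at 1.76 FPKM in WT6, with the next at 0.474 (0.731). Cyp4d2 was at 15.8 FPKM in WT2, with the next at 12 (0.527).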

How the results depend on the processing

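Of the 64 member values called against WT or in RpS3+puc against RpS3, none changed sign in 1208 alternative values. Many of these alternatives left out a single WT library. In the settings that left out no single library, 47 of the 64 stayed called throughout. Many calls were lost with 1 library of the mutant left out, as given with each gene. For 9 values, a setting with 1 compared library left out failed the filter and could not be fitted. With 1 library left out, the called members numbered 1 to 11 in RpS3, 3 to 13 in RpS3*, 3 to 11 in RpS15 and 5 to 9 in mahj, all against WT, 6 to 15 in RpS3+puc against RpS3, 11 to 14 in RpS3+puc against WT, 12 to 18 and 5 to 10 in RpS15 and mahj against both RpS3 alleles, 0 to 5 in RpS3* against RpS3 and 0 to 3 between WT stocks. These ranges are given without the share of all genes called in each setting, so they are not a result about the members alone. Where 1 library of a genotype was left, it was assumed to vary like the others. Against WT, the lowest counts came without RpS3 1, RpS3* 1, RpS15 2, mahj 1 and RpS3+puc 1 or 3, and in RpS3+puc against RpS3 without RpS3 2. The counts of 0 came without RpS3 1 or 2 in RpS3* against RpS3, and without WT5, WT6 or WT8 between WT stocks.

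Without the filter on low values, the counts were 16 in RpS15 (main 9), 14 in mahj (7), 23 in RpS3+puc against RpS3 (14), 26 and 14 in RpS15 and mahj against both alleles (17 and 9), 5 in RpS3* against RpS3 (3) and 3 between WT stocks (1). Over all genes, 1812 of 13474, 1471 of 13432, 3598 of 12140, 5221 of 12954, 2137 of 12711, 98 of 12156 and 163 of 13260 were called, in the same order. A joint fit of all libraries gave 11 in mahj (1867 of 8145 genes called), 6 in RpS3* against RpS3 (79 of 7837) and 2 between WT stocks (237 of 7975). A threshold of 0.05 gave 0 between WT stocks (37 of 7975 genes), and WT1 and WT2 alone gave 11 in mahj (2555 of 7950 genes). Without WT4, 8, 9, 10 and 9 members were called in RpS3, RpS3*, RpS15 and mahj against WT, and 5 in RpS3* against RpS3. Over all genes, 1179 of 8036, 1462 of 8046, 1596 of 8117, 1193 of 8124 and 61 of 7837 were called, in the same order. Leaving out WT6 and WT7, chosen after seeing the data, gave 12 in RpS3 (3481 of 8008 genes) and 13 in RpS3* (3693 of 8020 genes).

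The replicate numbers did not pair the samples (correlations of same-numbered deviations -0.25 to 0.27). In the genotypes with 2 libraries, replicate numbers 3 to 8 occurred only in WT, so the block fit set them against WT1 and WT2 alone. RpS3+puc was likewise set against WT1 to WT3 alone, and against RpS3 without RpS3+puc 3. With the replicate block, 11 members were called in mahj, 12 in RpS3, 13 in RpS3* and 9 in RpS15 against WT. Over all genes, 2942 of 8145, 4057 of 8053, 3773 of 8067 and 2308 of 8134 were called, in the same order. Called members numbered 14 in RpS3+puc against RpS3 (3574 of 7883 genes) and 16 against WT (5764 of 8094 genes). Of the 64 values, 6 were no longer called, namely Cyp4p1 in mahj (adjusted p = 0.183), Cyp317a1 in RpS3*, Cyp6v1 in RpS15 and RpS3+puc against WT, and Cyp4e2 and Cyp6d4 in RpS3+puc against RpS3. The cause of these lost calls, and of the changes in the other settings, was not tested. Members under 1 FPKM rest on few reads.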
